A study of Homo sapiens with 4 samples.

Results

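The genes described here are 48 mitosis and kinetochore genes, which encode mitotic kinases, spindle proteins, kinetochore proteins and cytokinesis proteins. They were given as a list of symbols and matched to the Ensembl genes of the count table, which holds 63677 genes, and all 48 were found. Cells of LX-2, a human line derived from hepatic stellate cells, the main source of collagen in the injured liver, were transfected at 20 nM with miR-6133-5p as a mimic, or with the negative control miControl. Both groups received 5 ng/mL of rhTGF-β1, a cytokine that drives collagen production, at 24 h, and RNA was collected another 24 h later. The comparison asks how the mimic changed the transcriptome of these cells, with 2 libraries in each group, called replicates 1 and 2, all from 1 cell line. No group went without rhTGF-β1, so the values describe the mimic in its presence. Counts on genes summed to 51862006 and 57903388 in miControl replicates 1 and 2, and to 61747010 and 93811213 in miR-6133-5p replicates 1 and 2.

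Mitosis is started by CDK1 with cyclin B, which CDC25 phosphatases switch on and which Polo-like and Aurora kinases amplify. Spindle microtubules then attach to the kinetochore, a protein layer built on the centromere of each chromosome, and a checkpoint holds back the separation of sister chromatids until attachment is complete. In cycling cells most of these genes are transcribed together late in the cell cycle, when DREAM and MuvB complexes, B-MYB and the forkhead factor FOXM1 act on their promoters, and activated stellate cells are known to divide as well as to make collagen.

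The labelled cell type was checked against its markers. Levels are given as CPM, which are counts scaled to the library total with TMM factors. Among stellate markers, *SPARC* had the highest counts, at 3677 and 3602 CPM in miControl replicates 1 and 2 and at 2879 and 2623 CPM in miR-6133-5p replicates 1 and 2. *VIM*, *PDGFRB* and *COL1A1* were well covered, whereas *DES* and *LRAT* had at most 7 counts in any library and were not tested. The 7 hepatocyte markers summed to at most 2.84 CPM, with *SERPINA1* at the highest counts and with *TTR* and *FGB* at 0 counts in every library. Of leukocyte markers, *CD14* reached at most 1.97 CPM and *PTPRC* at most 23 counts, with *CD163* and *CD3E* at 0 counts, and 4 of 5 endothelial markers reached 4.26 CPM in sum, mostly from *TEK*, while *PECAM1* was not matched to the table. Among 4 cholangiocyte markers *EPCAM* had at most 4 counts, while *SOX9* was at 80.2 and 80.8 CPM in miControl and 33.1 and 29.5 CPM in miR-6133-5p. *KRT7* went the other way, from 3.62 and 4.44 CPM to 6.61 and 7.08 CPM. As a check of the group labels, *COL1A1* went from 2917 ± 275 to 1064 ± 97.5 CPM (mean ± SD, n = 2), with a log2 fold change of -1.46 (edgeR, adjusted p = 8.88e-07, standard error 0.11), and *ACTA2* had a log2 fold change of -1.95.

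Most of the mitosis and kinetochore genes were higher in the cells given miR-6133-5p, while *FOXM1*, a transcription factor that drives many of them, was much lower. Differences were tested with edgeR's quasi-likelihood test, 2-sided, with Benjamini-Hochberg adjustment over the 18252 genes that had enough counts, and all 48 members were among these genes, with at least 899 counts in every library. At an adjusted p-value below 0.05, 34 of the 48 members rose, where 14.1% of all tested genes did, and 3 fell (*FOXM1*, *CDC25B* and *PLK1*), where 16.1% did. With the thresholds of the study's methods, a log2 fold change beyond 0.8 with an adjusted p-value below 0.01, 11 members rose against 2.90% of all tested genes, and only *FOXM1* fell, against 5.54%. The count of 11 became 18 with library totals alone, where 977 of all 18252 tested genes rose past these thresholds in place of 529. With glmTreat, which tests the fold change against the threshold itself, it became 1, and 80 of all tested genes rose. The median log2 fold change of the members was 0.50, beside 0.03 over all tested genes. Both miR-6133-5p libraries lay above both miControl libraries for 42 members, against 33.2% of all tested genes, and below them for 3, against 31.3%. The remaining 3 members with overlapping groups were *BIRC5*, *MKI67* and *KIF11*. In a bulk library, more cells in mitosis and more of these RNAs per cell cannot be told apart.

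Summed over the 48 members, the level was 10378 and 11657 CPM in miControl replicates 1 and 2, and 14908 and 15914 CPM in miR-6133-5p replicates 1 and 2. The 11 members past the study's thresholds made up 1790, 2488, 4417 and 5079 CPM of these sums in the same order, and the 11 members that did not pass the test at any fold made up 3612, 3953, 3819 and 4424 CPM. The groups overlapped in the last of these sums, since miR-6133-5p replicate 1 was below miControl replicate 2, and they did not overlap in the sum over all 48. Among the 11 members that did not pass, *MKI67* had the highest level, at 1047, 1313, 823 and 1540 CPM in the same order. Its low value in miR-6133-5p replicate 1 thus weighs on that overlap. Per kilobase of the canonical transcript, the highest mean levels were those of *UBE2C* with 263, *CCNB1* with 247, *PTTG1* with 235 and *TOP2A* with 235 CPM per kb, and the lowest were those of *CENPE* with 12.7 and *SPC24* with 16.2 CPM per kb.

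The labels do not say whether the replicates were separate cultures, so p-values measure only the spread between these libraries, and with 2 libraries against 2 the smallest p-value that exact permutation can give is 0.333. Without miControl replicate 1, 18 members were higher at an adjusted p-value below 0.05, beside 5.19% of all tested genes, and without miControl replicate 2 there were 25, beside 5.85%. With library totals alone in place of TMM scaling, the median of all tested genes shifted from 0.03 to 0.19 on the log2 scale, 25.2% of all tested genes were higher and 11.1% lower at an adjusted p-value below 0.05, and 42 members were higher and 2 lower. The median of the members exceeded that of all tested genes by 0.48 with either scaling. A change of scaling shifts all genes by nearly the same amount, so this difference says nothing about the choice of scaling.

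**Figure D1:**
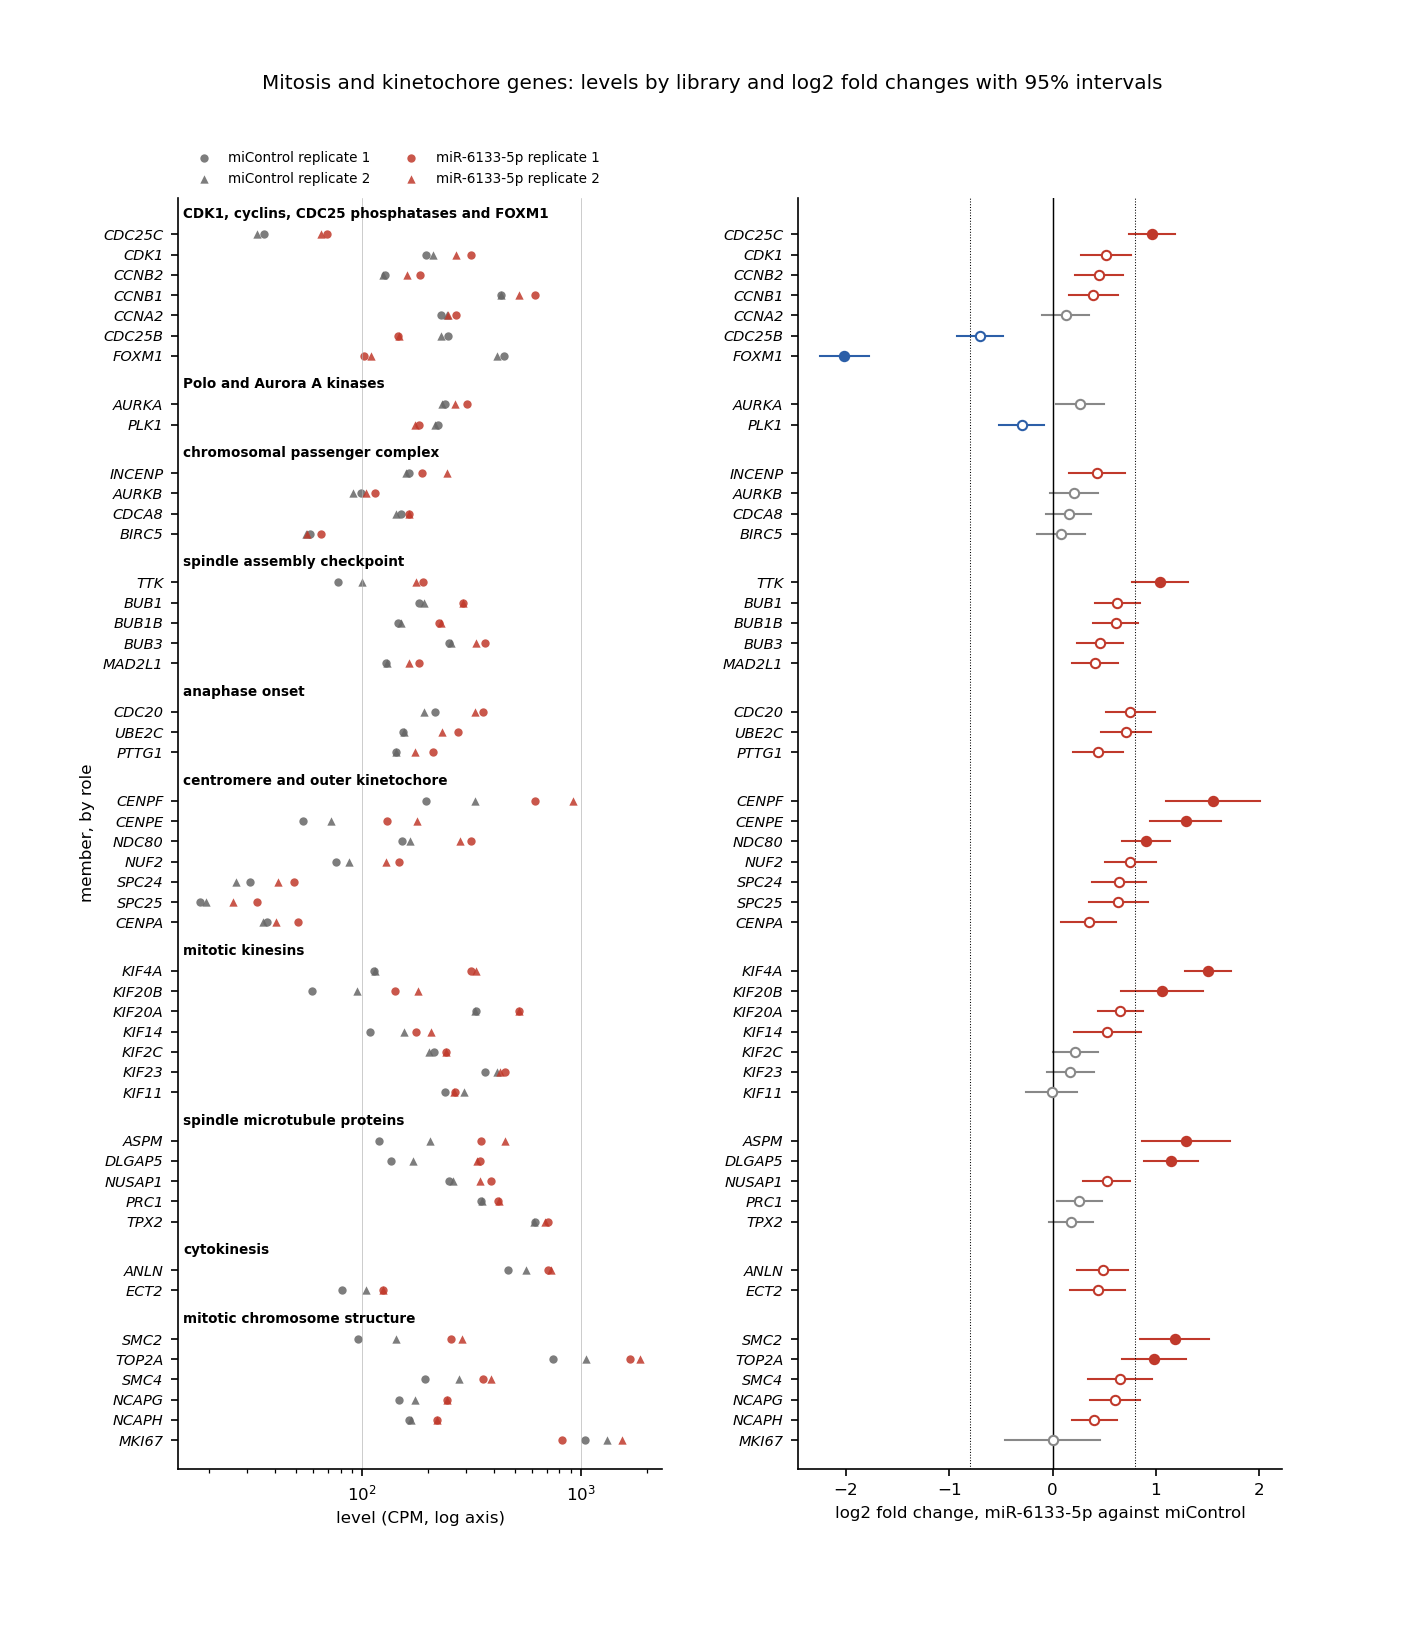
Levels and log2 fold changes of the 48 members, grouped by role. On the left, each point is 1 library (CPM, log axis); on the right, points are log2 fold changes of miR-6133-5p against miControl with 95% intervals, red for an adjusted p-value below 0.05 and higher, blue for lower, grey for not passing, filled where the study's thresholds are met, with dotted lines at a log2 fold change of 0.8 in either direction. *FOXM1* stands apart on the left at -2.01, and the kinetochore and checkpoint genes lie to the right of 0.

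Promoters of late cell cycle genes are known for a cell cycle genes homology region (CHR), where MuvB complexes bind, and for CCAAT boxes, where NF-Y binds. RefSeq promoter windows of 300 bases, from 250 before the transcription start, were available for 41 of the 48 members (GRCh38.p14, 53 windows, since some genes have several starts that can overlap). The letters TTTGAA or TTCGAA, taken as CHR, and CCAAT were searched on both strands. A CHR was found in 66.0% of the members' windows and in 16.4% of all 35116 windows, and a CCAAT box in 69.8% against 34.6%. Both were in 50.9% of the members' windows and in 6.38% of all windows. Windows of other mitotic genes held a CHR in 41.1%, those of S-phase genes in 4.76% and those of G1 regulators in 5.26%. The CCAAT box was shared more widely, with 51.6% of the windows of other mitotic genes, 57.1% of those of S-phase genes and 36.8% of those of G1 regulators. The stretches from 100 bases before to 49 bases after the start are shown for the members with the highest fold changes, *CENPF* and *KIF4A*, for the members that fell and have a window, *PLK1* and *CDC25B*, and for *KIF11*, whose level barely differed. Capitals mark every CHR and CCAAT match (TTCAAA and ATTGG are the same letters read on the other strand), the sequences run 5′ to 3′ toward the gene, and the window of *CDC25B* is the one of its windows that holds a CHR. These examples were chosen after the values had been seen.
CENPF (chr1:214603095-214603244, + strand): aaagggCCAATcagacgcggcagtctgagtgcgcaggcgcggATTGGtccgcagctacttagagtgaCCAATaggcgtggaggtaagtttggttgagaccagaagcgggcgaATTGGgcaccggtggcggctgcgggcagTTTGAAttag
KIF4A (chrX:70290004-70290153, + strand): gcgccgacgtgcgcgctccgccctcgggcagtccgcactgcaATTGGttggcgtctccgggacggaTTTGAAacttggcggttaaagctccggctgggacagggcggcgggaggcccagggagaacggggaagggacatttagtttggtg
PLK1 (chr16:23678789-23678938, + strand): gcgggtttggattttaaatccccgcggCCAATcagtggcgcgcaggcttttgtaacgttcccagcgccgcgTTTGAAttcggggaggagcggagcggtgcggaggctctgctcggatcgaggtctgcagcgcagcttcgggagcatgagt
CDC25B (chr20:3796210-3796359, + strand): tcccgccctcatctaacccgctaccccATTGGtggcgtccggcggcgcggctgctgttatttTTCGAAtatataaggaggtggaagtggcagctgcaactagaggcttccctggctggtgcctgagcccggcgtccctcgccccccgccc
KIF11 (chr10:92593030-92593179, + strand): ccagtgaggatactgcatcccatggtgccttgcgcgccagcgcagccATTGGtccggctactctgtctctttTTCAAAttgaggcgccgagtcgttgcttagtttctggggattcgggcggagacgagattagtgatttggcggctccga

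The same letters thus stood in the promoters of genes that rose, fell or did not pass the test. In *KIF4A*, *PLK1*, *CDC25B* and *KIF11* a single CCAAT box came first and a single CHR followed it, with the CHR 34, 29, 38 and 28 bases before the start, respectively. *CENPF* had 3 CCAAT boxes before the start, a further CCAAT box 12 bases after it and its CHR 40 bases after it. By gene, a CHR was in at least 1 window for 25 of the 31 members that rose and have a window, for both members that fell and have one, and for 5 of the 8 that did not pass. Counted in the same way, it was in 19.5% of all genes with a window and in 15.9% of the tested genes with one. By window the share was 71.8% for the members that rose and 40.0% for those that fell, since only 1 of the 4 windows of *CDC25B* holds a CHR. A match describes letters in the window and is not a measured binding site.

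**Figure D2:**
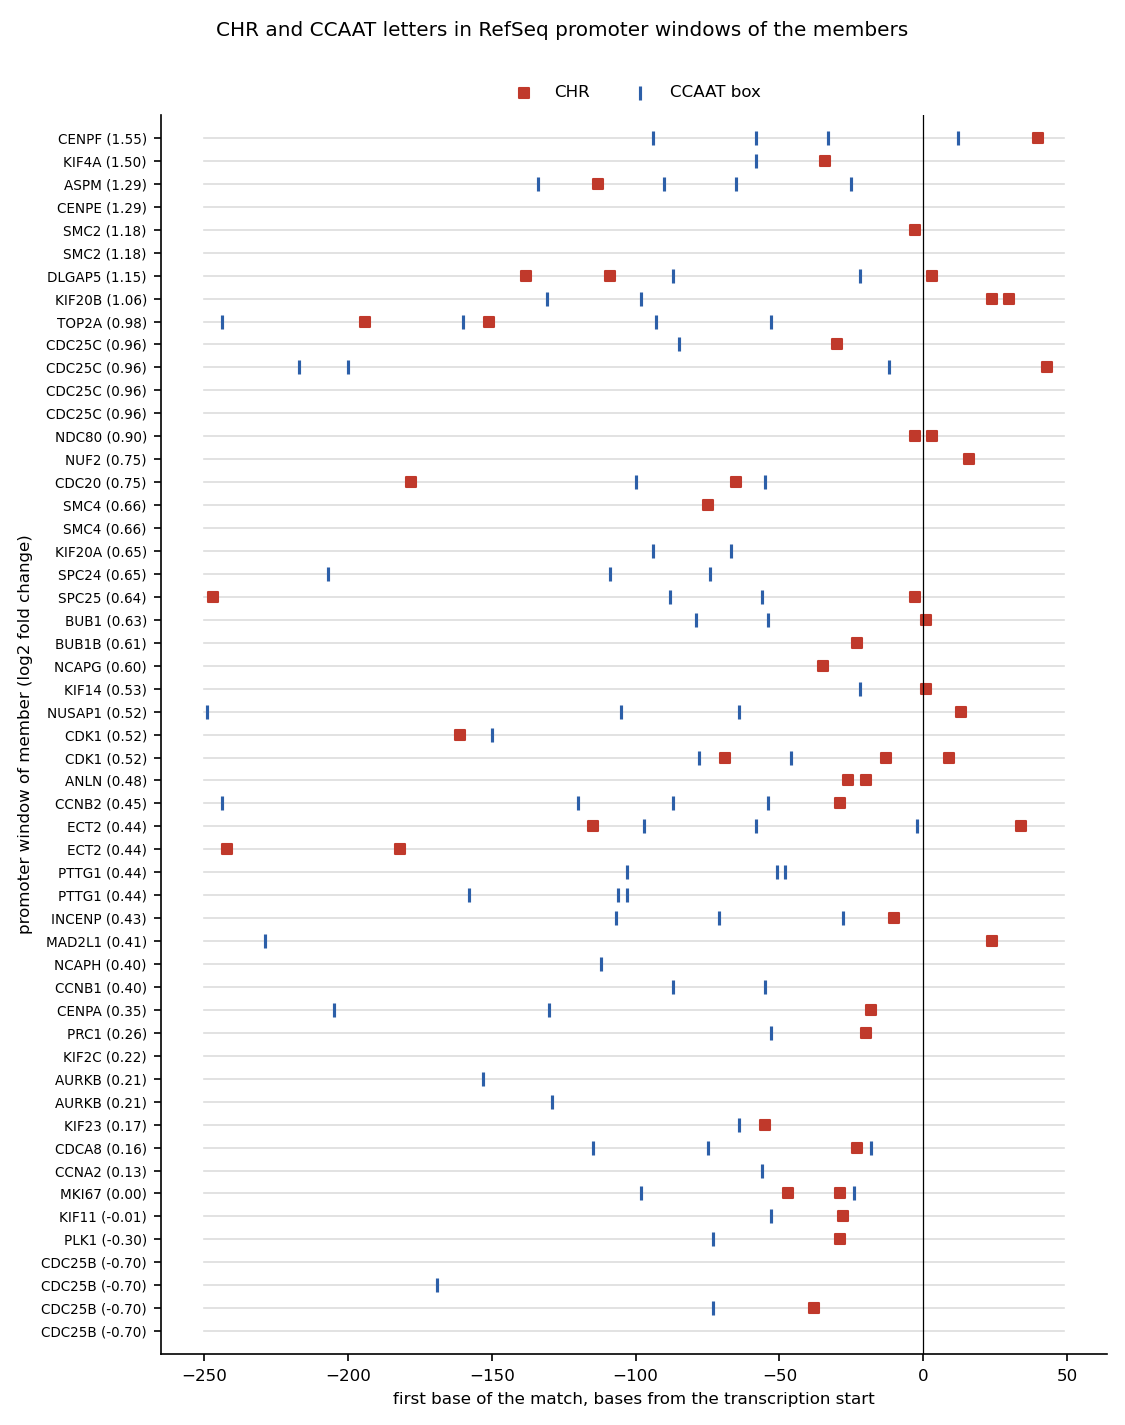
Places of CHR (red squares) and CCAAT box letters (blue bars) in the 53 promoter windows of 41 members, as the distance of the first base of each match from the transcription start in bases, with negative values before it. Windows are ordered by log2 fold change, given in parentheses, from 1.55 for *CENPF* to -0.70 for *CDC25B*, and both kinds of match occur along the whole order.

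Among the regulators of mitotic entry, *FOXM1* lies on GRCh37 chr12:2966846-2986340. Its level was 448 and 414 CPM in miControl replicates 1 and 2, and 103 and 111 CPM in miR-6133-5p replicates 1 and 2. Both miR-6133-5p libraries were far below both miControl libraries, and the replicates of each group lay close together. The log2 fold change was -2.01 (edgeR, adjusted p = 6.00e-08, standard error 0.11), so that 24.8% of the miControl level was left, and with any 1 library removed it ran from -2.10 to -1.97. Of the exon bases of *FOXM1*, 15.9% overlap exons on the other strand, where *RHNO1* lies, which was not lower, with a log2 fold change of 0.23 (adjusted p = 0.135, edgeR).

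*CDC25C* and *CDC25B* encode phosphatases that remove inhibitory phosphates from CDK1, and they moved in opposite directions. *CDC25C* was at 35.8 and 33.4 CPM in the miControl libraries and at 69.8 and 65.1 CPM in miR-6133-5p, with a log2 fold change of 0.96 (edgeR, adjusted p = 1.62e-05, standard error 0.10). *CDC25B* was at 247 and 230 CPM in miControl and at 147 and 148 CPM in miR-6133-5p, with a log2 fold change of -0.70 (adjusted p = 0.000201, edgeR). In neither gene did the groups overlap, and for both the gap between replicates was small beside that between groups. The cyclin B genes and *CDK1* rose less. *CCNB1*, the cyclin that carries CDK1 into mitosis, with the highest counts of this role, went from 434 and 431 CPM to 616 and 522 CPM, with a log2 fold change of 0.40 (adjusted p = 0.0154, edgeR), and miR-6133-5p replicate 1 was the higher of its group. *CDK1* had a log2 fold change of 0.52 and *CCNB2* of 0.45. Without miControl replicate 1 these 3 rises did not pass the test (*CCNB1* 0.39, *CDK1* 0.46, *CCNB2* 0.45), and without miControl replicate 2 *CCNB1* (0.36) and *CCNB2* (0.41) did not. Without miR-6133-5p replicate 1 *CCNB1* passed at a lower log2 fold change of 0.25. *CCNA2*, the cyclin of S phase and early mitosis, was at 237 ± 10.9 and 259 ± 14.5 CPM, and did not pass, with a 95% interval of the log2 fold change from -0.10 to 0.35. It passed with library totals alone (0.29) and was 0.05 without miR-6133-5p replicate 1.

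The kinases that amplify mitotic entry gave a smaller difference. *PLK1*, the Polo-like kinase, was at 222 and 216 CPM in miControl and at 182 and 174 CPM in miR-6133-5p. Both miR-6133-5p libraries were lower, with a log2 fold change of -0.30 (edgeR, adjusted p = 0.0406, standard error 0.10). The call was lost with library totals alone, where the log2 fold change was -0.13 (adjusted p = 0.335, edgeR), and without miControl replicate 1 (-0.29) or miControl replicate 2 (-0.35). *AURKA*, the Aurora kinase of centrosomes and spindle poles, was at 240 and 233 CPM in miControl and 301 and 267 CPM in miR-6133-5p. Its miR-6133-5p libraries were both higher, but the difference did not pass the test (log2 fold change 0.27, 95% interval 0.04 to 0.49, adjusted p = 0.0764, edgeR). It passed with library totals alone (0.43), without miR-6133-5p replicate 2 (0.34) and with offsets for GC content and length (0.26), and was 0.16 without miR-6133-5p replicate 1.

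The chromosomal passenger complex, which corrects wrong attachments at the inner centromere, consists of Aurora B and 3 partners, and 1 of its 4 genes passed the test. *INCENP*, its scaffold, was at 164 and 159 CPM in miControl and at 188 and 246 CPM in miR-6133-5p. Replicate 2 of miR-6133-5p was the highest, and without it the rise did not pass, with a log2 fold change of 0.21 in place of 0.43 (adjusted p = 0.0207 with all libraries, edgeR). It did not pass without miControl replicate 1 (0.44) or miControl replicate 2 (0.38) either. *AURKB*, the kinase of the complex, had a log2 fold change of 0.21, *CDCA8* (borealin) of 0.16 and *BIRC5* (survivin) of 0.08. None of these 3 passed, and their 95% intervals reached no higher than 0.44. With library totals alone *AURKB* (0.37) and *CDCA8* (0.32) passed. *AURKB* also had a log2 fold change of 0.26 without miR-6133-5p replicate 2, and *CDCA8* passed with offsets for GC content and length (0.19). Without miControl replicate 2 *AURKB* was 0.12 and *CDCA8* was 0.09. Without miR-6133-5p replicate 1 *AURKB* was 0.12 and *BIRC5* turned to -0.04.

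The 5 members of the spindle assembly checkpoint, which delays anaphase while kinetochores are unattached, all rose, with log2 fold changes from 0.41 for *MAD2L1* to 1.04 for *TTK*. *TTK*, the MPS1 kinase that starts the signal, was at 78.2 and 101 CPM in miControl and at 191 and 178 CPM in miR-6133-5p. The lower miR-6133-5p library was well above the higher miControl library, and the adjusted p-value was 3.94e-05 (standard error 0.13, edgeR). *BUB3*, which docks checkpoint proteins on the kinetochore and had the highest counts of the 5, was at 251 and 256 CPM in miControl and at 365 and 334 CPM in miR-6133-5p, with a log2 fold change of 0.46. The kinase gene *BUB1* rose by 0.63 and *BUB1B*, which encodes BUBR1, by 0.61 on the log2 scale. *BUB3* and *MAD2L1* did not pass without miControl replicate 1 (0.43 and 0.39) or miControl replicate 2 (0.45 and 0.39). The 3 genes of anaphase onset rose too. *CDC20*, the activator of the anaphase-promoting complex that the checkpoint holds in check, was at 217 and 192 CPM in miControl and at 359 and 329 CPM in miR-6133-5p, with no overlap (log2 fold change 0.75, adjusted p = 0.000183, edgeR). *UBE2C*, the ubiquitin-conjugating enzyme of that complex, rose by 0.71 and *PTTG1*, the securin that it degrades, by 0.44 on the log2 scale. The rise of *PTTG1* did not pass without miControl replicate 1 (0.43) or miControl replicate 2 (0.41), and its log2 fold change was 0.28 without miR-6133-5p replicate 1. *PTTG1* has near-identical copies in the genome, of which *PTTG2* had 0 counts in each library.

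The 7 members of the centromere and outer kinetochore all rose, and their median log2 fold change, 0.75, was the highest of the 10 roles in the main fit. With offsets for GC content and length their median was 0.66, below the 0.71 of anaphase onset and the 0.67 of the spindle assembly checkpoint. Without miR-6133-5p replicate 1 it was 0.64, slightly below that of mitotic chromosome structure. *CENPF* (GRCh37 chr1:214776528-214837917), a large protein of the outer kinetochore, was at 196 and 328 CPM in miControl and at 619 and 917 CPM in miR-6133-5p. In each group replicate 2 was much the higher, and even so the groups did not overlap. The log2 fold change was 1.55 (edgeR, adjusted p = 0.000116, standard error 0.21) and ran from 1.22 to 1.94 with each library left out. *CENPE*, the kinesin that carries chromosomes along the spindle, was at 53.8, 72.5, 130 and 178 CPM in miControl replicates 1 and 2 and miR-6133-5p replicates 1 and 2, with replicate 2 again higher in each group (log2 fold change 1.29, adjusted p = 5.34e-05, edgeR). Of the NDC80 complex, which grips the microtubule end, *NDC80* was at 153 and 166 CPM in miControl and at 314 and 282 CPM in miR-6133-5p (log2 fold change 0.90, adjusted p = 3.66e-05, edgeR). Its partners *NUF2*, *SPC24* and *SPC25* rose by 0.75, 0.65 and 0.64 on the log2 scale, so the 4 subunits lay between 0.64 and 0.90. *SPC25* did not pass without miControl replicate 1 (0.58). *CENPA*, the histone variant that marks the centromere, rose least, by 0.35, and its adjusted p-value of 0.0450 (edgeR) was lost with RLE normalization (0.34) and without miControl replicate 1 (0.37), miControl replicate 2 (0.29) or miR-6133-5p replicate 1 (0.16).

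Among the mitotic kinesins, motor proteins that move along microtubules, 4 of 7 rose. *KIF4A* (GRCh37 chrX:69509954-69640736), a chromosome-bound motor that also acts at the central spindle, was at 113 and 115 CPM in miControl and at 315 and 331 CPM in miR-6133-5p. Replicates were nearly equal, and the log2 fold change of 1.50 (edgeR, adjusted p = 3.72e-07, standard error 0.10) had the smallest adjusted p-value among the members that rose. Its near-identical intronless copy *KIF4B* had 2, 8, 12 and 16 counts in the 4 libraries. *KIF20B* was at 59.1 and 95.3 CPM in miControl and at 142 and 180 CPM in miR-6133-5p, with wide gaps between replicates and no overlap (log2 fold change 1.06, adjusted p = 0.000693, edgeR). *KIF20A*, a motor of cytokinesis and the kinesin with the highest counts, was at 333 and 329 CPM in miControl and at 522 and 520 CPM in miR-6133-5p (log2 fold change 0.65). *KIF14* rose by 0.53 on the log2 scale, a rise that did not pass without miControl replicate 1 (0.28). The motor that pushes spindle poles apart, *KIF11*, had a log2 fold change of -0.01 with a 95% interval from -0.26 to 0.24, and its sign turned with library totals alone (0.16), without miControl replicate 2 (0.11) and with offsets for GC content and length (0.02). *KIF2C*, a microtubule depolymerase, and *KIF23*, a motor of the central spindle, had log2 fold changes of 0.22 and 0.17 and did not pass. Both passed with library totals alone (0.39 and 0.34) and with the same offsets (0.29 and 0.21), and *KIF23* was 0.08 without miControl replicate 1.

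Of 5 spindle microtubule proteins, 3 rose. *ASPM*, a protein of the spindle poles, was at 121 and 206 CPM in miControl and at 350 and 450 CPM in miR-6133-5p, and replicate 2 was the higher in both groups (log2 fold change 1.29, standard error 0.20, adjusted p = 0.000284, edgeR). *DLGAP5*, which stabilizes microtubules near chromosomes, was at 136 and 172 CPM in miControl and at 348 and 334 CPM in miR-6133-5p (log2 fold change 1.15, adjusted p = 1.39e-05, edgeR). In neither gene did the groups overlap. *NUSAP1* rose by 0.52 on the log2 scale and did not pass without miControl replicate 1 (0.48) or miControl replicate 2 (0.52). *TPX2*, the activator of Aurora A and the one with the highest counts of this role, was at 616 and 612 CPM in miControl and at 706 and 684 CPM in miR-6133-5p, slightly higher in both but not past the test (log2 fold change 0.18, 95% interval -0.04 to 0.39). *PRC1*, the bundler of the central spindle, had a log2 fold change of 0.26 and did not pass either. Both genes passed with library totals alone (*TPX2* 0.34, *PRC1* 0.42), with offsets for GC content and length (0.27 and 0.34) and without miR-6133-5p replicate 2 (0.18 and 0.23), and *PRC1* also without miR-6133-5p replicate 1 (0.25). Both genes of cytokinesis rose. *ANLN*, which encodes the ring scaffold anillin, was at 468 and 565 CPM in miControl and at 710 and 735 CPM in miR-6133-5p, and *ECT2*, the activator of RhoA at the cleavage furrow, had a log2 fold change of 0.44 beside 0.48 for *ANLN*. Without miControl replicate 1 neither passed (*ANLN* 0.34, *ECT2* 0.26).

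Of the 6 genes of mitotic chromosome structure, 5 rose. *TOP2A*, the topoisomerase that untangles sister DNA, was at 747 and 1057 CPM in miControl and at 1683 and 1875 CPM in miR-6133-5p. *SMC2*, a core subunit of condensin, was at 96.3 and 143 CPM in miControl and at 255 and 288 CPM in miR-6133-5p. For both genes miControl replicate 1 was the lowest library and the groups did not overlap, with log2 fold changes of 0.98 (adjusted p = 0.000198, edgeR) and 1.18 (adjusted p = 8.25e-05, edgeR). The condensin genes *SMC4*, *NCAPG* and *NCAPH* rose by 0.66, 0.60 and 0.40 on the log2 scale, and none of these 3 passed without miControl replicate 1 (0.41, 0.48 and 0.38). *NCAPH* did not pass without miControl replicate 2 either (0.39). *MKI67*, the proliferation marker Ki-67 that coats mitotic chromosomes, was at 1047 and 1313 CPM in miControl and at 823 and 1540 CPM in miR-6133-5p. Its miR-6133-5p libraries lay on either side of the miControl libraries, so the log2 fold change of 0.00 had a 95% interval from -0.46 to 0.46 (adjusted p = 0.995, edgeR). Without miR-6133-5p replicate 2 it was -0.53 (adjusted p = 1.80e-06) and without replicate 1 it was 0.37 (adjusted p = 0.000404, edgeR), so the sign of this gene depended on which library was left out. Among the rises at the study's thresholds, *ASPM* (0.95), *KIF20B* (0.74) and *TOP2A* (0.74) were lost without miControl replicate 1, and the other 8 of the 11 members that rose were kept with any library left out.

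The gaps between replicates followed the base composition and length of the transcripts. Over the 48 members, the difference between miControl replicates 2 and 1 in log2 CPM had a Spearman's rho of -0.856 with the GC content of the Ensembl canonical transcript, and over 17285 tested genes with a transcript the value was -0.395. In the miR-6133-5p group the same difference went with transcript length, with a rho of 0.820 over the members and 0.271 over the tested genes. In miControl length gave 0.617 and 0.131, and in miR-6133-5p GC content gave -0.167 and 0.075, in the same order. Members share libraries and many share base composition, so these values are descriptions. The GC content of the members ran from 34.3% in *KIF20B* to 59.1% in *CDC25B*, with a median of 42.1%. The log2 fold change of the members had a rho of -0.533 with GC content, beside 0.036 over the tested genes. Of the 24 members below the median GC content, 21 rose, 9 of them past the study's thresholds, and of the 24 above it, 13 rose, 2 of them past those thresholds. In the GC range of the first 24, 15.5% of 4282 tested genes rose, 3.01% rose past the study's thresholds, and their median log2 fold change was 0.04. No such share was taken for the GC range of the other 24. In a fit added after seeing the data, with an offset per library for GC content and length, 40 members rose and 3 fell at an adjusted p-value below 0.05, where 19.5% of all genes in that fit rose and 18.4% fell. At the study's thresholds 11 rose and 1 fell, and all 11 were the same genes. The median was then 0.52, *CENPF* had a log2 fold change of 1.69, *KIF4A* of 1.62, *FOXM1* of -1.96 and *MKI67* of 0.21. The log2 fold change of *CDK1* dropped from 0.52 to 0.31, that of *TTK* from 1.04 to 0.92 and that of *NUF2* from 0.75 to 0.64. With these offsets the rho between log2 fold change and GC content was -0.461 over the members and 0.013 over the tested genes.

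**Figure D3:**
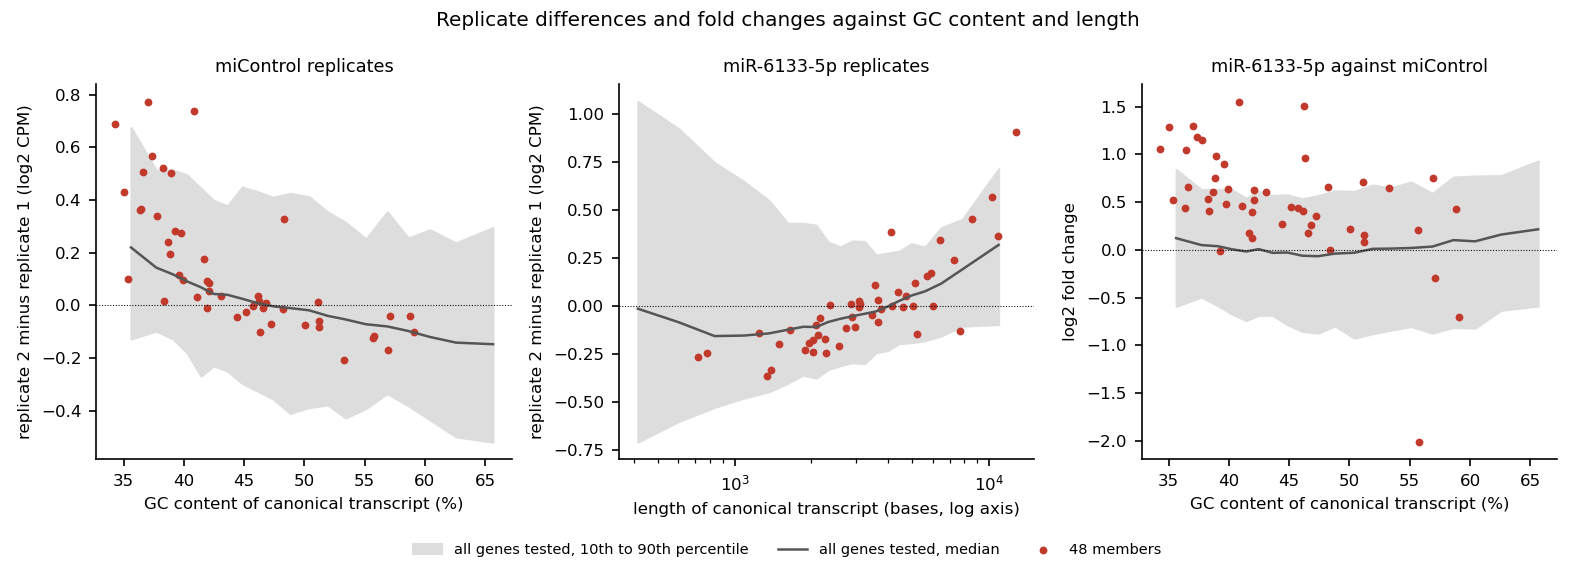
Red points are the 48 members, the line is the median and the band the 10th to 90th percentile of tested genes in bins. The left panel plots the difference between miControl replicates (log2 CPM) against transcript GC content, where members with a low GC content lie high. The middle panel plots the difference between miR-6133-5p replicates against transcript length (log axis), where *MKI67* is the longest, and the right panel plots the log2 fold change against GC content, where the median of tested genes stays near 0.

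Other lists of cell cycle genes were set beside the members. Of 106 further mitotic genes, 46 rose and 12 fell at an adjusted p-value below 0.05, with a median log2 fold change of 0.20. These are 43.4% and 11.3%, beside 14.1% and 16.1% of all tested genes. At the study's thresholds 9 rose and 2 fell, or 8.49% and 1.89% beside 2.90% and 5.54%. The highest was *SGO2*, shugoshin, the protector of centromeric cohesion, at 65.3 and 99.1 CPM in miControl and 205 and 204 CPM in miR-6133-5p (log2 fold change 1.31, adjusted p = 3.58e-05, edgeR). *RACGAP1*, the partner of KIF23 in the central spindle, followed with a log2 fold change of 1.26, from 126 ± 1.24 to 303 ± 7.76 CPM. Of 13 genes of separase and of cohesin, the ring that holds sister chromatids together, 5 rose and 3 fell. These are 38.5% and 23.1%, beside 14.1% and 16.1% of all tested genes. *SMC1A* fell from 251 and 252 CPM to 106 and 135 CPM (log2 fold change -1.06, adjusted p = 2.61e-05, edgeR), while *STAG2* rose by 0.95 on the log2 scale. *ANAPC1*, the largest subunit of the anaphase-promoting complex that CDC20 activates, fell from 160 and 161 CPM to 65.0 and 80.1 CPM (log2 fold change -1.14, adjusted p = 1.02e-05, edgeR). Its copies on the same chromosome could share reads with it, and the one with the highest counts, *ANAPC1P4*, had a log2 fold change of -0.05.

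Of 10 genes of the DREAM and MuvB complexes and B-MYB, which act on the promoters of the members, 2 rose and 3 fell, which is 20.0% and 30.0% beside 14.1% and 16.1% of all tested genes, and with so few genes the counts say little about the group. They are named here after their values were seen. *MYBL2*, which encodes B-MYB, fell by 0.44 on the log2 scale, from 280 ± 23.5 to 207 ± 4.83 CPM. *E2F4* and *TFDP1*, the E2F and DP subunits of DREAM, fell by 0.68 and 0.38 on the log2 scale, and *LIN9* and *RBBP4* of the MuvB core rose by 0.49 and 0.45. The 22 further spindle, centrosome and midbody genes were closest to the members, with 15 that rose, none that fell and a median of 0.48. Of the 17 inner kinetochore and loading genes, 9 rose (52.9%, beside 14.1% of all tested genes) and none fell. Of the 9 further genes of the KMN network and SKA complex at the outer kinetochore, 5 rose and 2 fell. These are 55.6% and 22.2%, beside 14.1% and 16.1% of all tested genes. Their median was 0.30 and their lowest value -0.56. Of 8 RZZ and further checkpoint genes, 2 rose and 1 fell, with a lowest value of -0.67. With only 8 or 9 genes, the counts of these last groups say little about the group as a whole. Of the 15 genes of the anaphase-promoting complex and its regulators, 3 rose and 3 fell, a share of 20.0% each way, near the shares of all tested genes.

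Of 36 S-phase genes, 35 were tested, and *UHRF1* was not matched to the table. At an adjusted p-value below 0.05, 12 rose and 1 fell (34.3% and 2.86%, beside 14.1% and 16.1% of all tested genes), with a median log2 fold change of 0.21. *TYMS*, thymidylate synthase, rose from 24.2 and 24.5 CPM to 89.2 and 76.8 CPM (log2 fold change 1.77, adjusted p = 2.03e-07, edgeR), and *RRM2*, a subunit of ribonucleotide reductase, rose by 1.15 on the log2 scale. *GINS1*, a subunit of the replicative helicase, went the other way, from 78.6 and 78.9 CPM to 28.9 and 25.3 CPM (log2 fold change -1.54, adjusted p = 4.51e-07, edgeR). Of 18 G1 regulators, 6 rose and 6 fell (33.3% each way, beside the same shares of all tested genes), with a median of 0.09. *CDK6*, a kinase that drives cells through G1, was at 1035 and 1195 CPM in miControl and at 162 and 211 CPM in miR-6133-5p, with a log2 fold change of -2.58 (edgeR, adjusted p = 6.00e-08, standard error 0.14). Its partner *CCND2*, a D-type cyclin, fell from 20.0 ± 0.408 to 6.61 ± 0.0429 CPM (edgeR, adjusted p = 8.04e-07), and *E2F2* rose by 0.94. The difference between the lists was not tested.

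**Figure D4:**
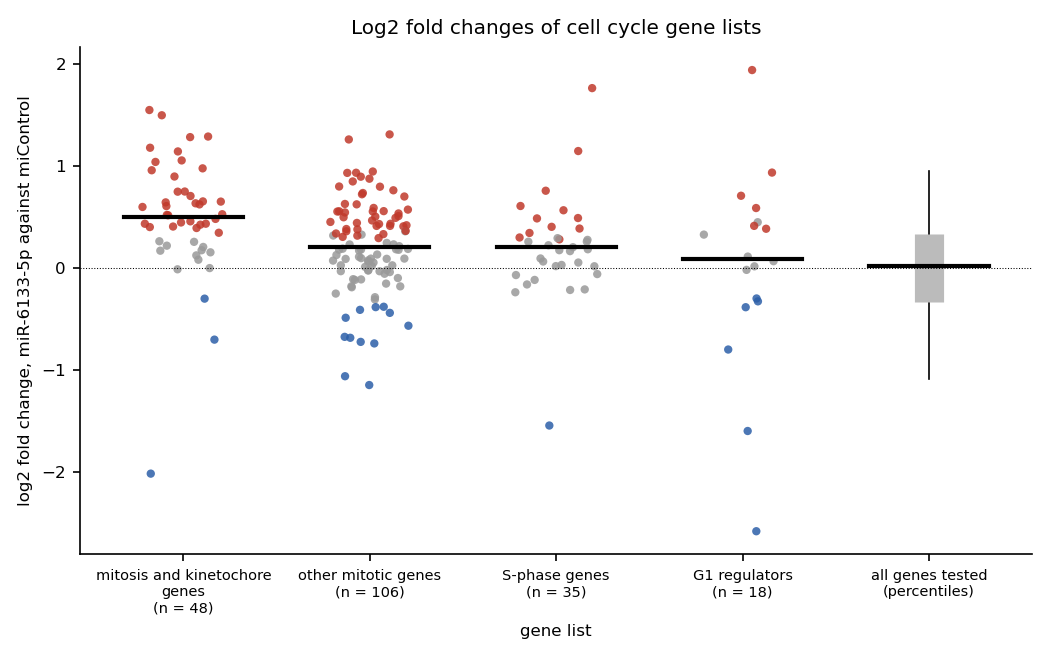
Log2 fold changes of miR-6133-5p against miControl for the 48 members and 3 other lists, 1 point per tested gene, red for an adjusted p-value below 0.05 and higher, blue for lower and grey for not passing, with a line at the median. For all tested genes the line is the median, the box spans the 25th to 75th percentile and the thin line the 5th to 95th. The medians were 0.50, 0.20, 0.21, 0.09 and 0.03, and the highest G1 point, *CDKN1C*, rests on at most 32 counts in a library.

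The strand setting of the counting is not given in the sources used here. More than 5% of the exon bases of 9 members overlap exons of a gene on the other strand, from 5.35% in *KIF20A* to 34.3% in *PRC1*, with 33.7% in *NCAPG* and 12.8% in *PLK1*, and *SMC4* lies between these 2. On the same strand 3 members pass this mark, with 10.2% in *BUB1B*, 7.08% in *CENPA* and 5.41% in *NUSAP1*. Their counts could hold reads of the neighbour.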

How the data were processed

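RNA of 4 LX-2 libraries, 2 per group as the labels give them, was analysed. The authors aligned paired reads to GRCh37 with STAR (2.5.3a in the submitters' processing notes, which also name featureCounts and Subread 1.6.4) and deposited whole-number counts per Ensembl gene, without normalization. The annotation release and strand setting are not given in the sources used here. There were between 1.68 and 1.70 counts per uniquely mapped read pair in each library, so mates appear to have been counted separately and a count is not an independent molecule. One count corresponded to 0.0101 to 0.0203 CPM.

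Symbols were matched by gene identifier, which named 55665 genes. Counts were filtered with filterByExpr, scaled with TMM and tested with glmQLFit and glmQLFTest in edgeR 4.0.16 (R 4.3.3), without a replicate block, as the study's methods name none. The common biological coefficient of variation was 0.106. Standard errors were derived from the F statistic and 95% intervals from its degrees of freedom. The log2 CPM used a prior count of 2. The alternatives were RLE scaling, library totals alone, DESeq2 1.42.0, no filter beyond a count above 0, at least 10 counts in every library, a replicate block, glmTreat, each library left out in turn and, added after seeing the data, smooth offsets for GC content and length fitted with mgcv 1.9.3. Gene positions, exon overlaps, transcript lengths and GC content came from GENCODE lifted to GRCh37, possibly a different annotation from that of the counts, and promoter windows from RefSeq on GRCh38.p14. The fit was also run on simulated counts, with a common dispersion for all genes and no GC or length differences between replicates. That run therefore does not bear on the replicate gaps described above. A table of mapped pairs was used for depth alone.

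The members and lists were chosen with earlier results of these data known. Every member may be named. Values per library are given for members past the study's thresholds and, in each role, for those with the largest absolute fold change and the highest mean count, and for up to 5 genes per other list past those thresholds. *CDC25B* and *MKI67* were added after their values were seen. No member had 3 or fewer counts in a group. Matches of a miRNA seed to 3′-UTRs were not analysed here. Python 3.11.15 with pandas 2.3.3, scipy 1.17.1 and matplotlib 3.10.9 was used for tables and plots.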

Additional observations from a re-analysis of the deposited data

How the results depend on the processing

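With RLE normalization, DESeq2, the low-count filter removed, a filter of 10 or more counts per library and the replicate block, the counts of members kept within 1.5 times their main values, at 33 or 34 higher and 3 lower for an adjusted p-value below 0.05 and at 10 or 11 higher and 1 lower at the study's thresholds, and the median log2 fold change lay between 0.49 and 0.51. DESeq2 lost *KIF20B* at the study's thresholds and RLE lost *CENPA* at an adjusted p-value below 0.05. With all libraries kept, the values that moved were those of library totals alone and of glmTreat. Library totals gave 18 members higher at the study's thresholds in place of 11 and a median of 0.67 in place of 0.50. The glmTreat test, which tests the fold change against the threshold itself, left 1 member higher, *KIF4A*, and *FOXM1* lower. With 1 library left out in turn, where the lone library of a group is assumed to vary like the other group, 18 to 37 members were higher and 2 to 4 lower at an adjusted p-value below 0.05, 8 to 13 were higher and 1 was lower at the study's thresholds, and the median ran from 0.42 to 0.54. The lowest counts came from leaving out miControl replicate 1. The log2 fold change of *MKI67* ran from -0.53 without miR-6133-5p replicate 2 to 0.37 without miR-6133-5p replicate 1, and the cause was not tested.

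Over all genes, replicates with the same number did not deviate together. The correlation between the deviations of the replicates numbered 1 from their group means was 0.05, so the numbers were not taken to pair the samples. This did not hold for the members with the widest gaps. Between miControl replicates these were *ASPM*, *CENPF*, *KIF20B* and *SMC2*, with replicate 2 higher by 0.77, 0.74, 0.69 and 0.57 in log2 CPM. In miR-6133-5p replicate 2 was higher too, by 0.36, 0.57, 0.34 and 0.17. *TTK* and *NUF2*, with smaller gaps in miControl (0.365 and 0.20), had replicate 2 lower in miR-6133-5p (-0.11 and -0.19). With a replicate block, 34 members were higher and 3 lower at an adjusted p-value below 0.05, 11 were higher and 1 lower at the study's thresholds, and the median was 0.50, so it changed no call of a member. With the GC and length offsets chosen after seeing the data, 6 members more were higher at an adjusted p-value below 0.05. Members had at least 899 counts in every library, and the effect of sequencing depth on their calls was not tested.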
